A study of Mus musculus with 24 samples.

Results

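The lysosome genes described here are 41 protein-coding genes taken by symbol from a table of 32544 genes: soluble hydrolases and their helpers, proteins of the lysosomal membrane, the mannose 6-phosphate receptors, 5 subunits of the vacuolar proton pump, and the transcription factors Tfeb and Tfe3. Cathepsins were left out of the set and appear once, as another part of the same pathway. All 41 passed the filter on low values (above 1 CPM, counts scaled to a fixed library total, in at least 3 samples) that left 16906 genes for testing. RNA was measured by polyA RNA sequencing in frozen inguinal mammary glands of 24 mice, 3 in each of 8 groups. The groups are glands labelled BL/6 NZB and glands labelled BL/6 C57 (NZB and C57 below), each from non-lactating mice and from mice on lactation days 8, 14 and 21. All 8 groups share the BL/6 label, no treatment or age is given, and the labels describe neither genotype further. For C57 non-lactating mouse 3 the genotype tag reads NZB and the title C57, and the title was followed. Without that mouse the counts given below against non-lactating C57 glands were 11 higher and 11 lower on C57 day 8, 11 and 8 on day 14, 11 and 9 on day 21, 11 and 2 in the genotype interaction from non-lactating to day 21, and 1 (Tfeb) and 0 in NZB against C57 non-lactating glands.

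Lysosomes are acid organelles that break down proteins, lipids, sugar chains and glycogen delivered by endocytosis and autophagy. Most soluble hydrolases reach them from the Golgi carrying a mannose 6-phosphate tag that the receptors M6pr and Igf2r bind, and the vacuolar proton pump acidifies the lumen. TFEB and TFE3 are transcription factors that bind the sequence TCACGTG before many of these genes. In the mammary gland lysosomes are known for their part in clearing milk-filled and dying epithelial cells when milk removal stops.

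The 300 bases around the gene start (250 before to 50 after, RefSeq, GRCm38.p6) were at hand for 34 of the 41 genes, and TCACGTG or its reverse complement CACGTGA, searched on both strands, was present in 12 of them, which is 35.3%, against 3.77% of all 32851 windows and 6.31% of the 11804 tested genes with a window. The shorter core CACGTG, which overlaps it, was in the same 12 genes, in 7.15% of all windows and in 10.9% of the tested genes with a window. The 12 genes were Lamp1, Mcoln1, Gla, Arsa, Glb1, Gaa, Naglu, Sgsh, Cln3, Igf2r, Atp6v0d1 and Atp6v1a. The sites of 6 of them are printed 5′ to 3′ on the strand of the gene with the motif in capitals, to show how the motif sits in these promoters. They are Lamp1, the gene with the most copies, the receptor gene Igf2r, the pump subunits Atp6v0d1 and Atp6v1a, and Cln3 and Glb1, which were higher in every lactating group. Among those not printed, Arsa was lower in every lactating group. Against non-lactating glands, 4 of the 12 genes were higher and 3 lower on day 8 in C57 and in NZB glands alike. Of the 22 genes whose window lacks TCACGTG, 6 were higher and 9 lower in C57, and 6 and 7 in NZB glands. Of all tested genes 12.8% and 14.5% were higher, and 30.2% and 31.4% lower.
Lamp1 site 1 (chr8:13159089-13159115, plus strand): gggcaagataTCACGTGgtccagcgcc
Lamp1 site 2 (chr8:13159106-13159132, plus strand): gtccagcgccCACGTGAtgccgactgg
Lamp1 site 3 (chr8:13159123-13159149, plus strand): tgccgactggCACGTGAccacatcacg
Lamp1 site 4 (chr8:13159135-13159161, plus strand): cgtgaccacaTCACGTGcggaacggag
Igf2r site 1 (chr17:12769738-12769765, minus strand): aacgaggacgTCACGTGAgcaggaggcg
Igf2r site 2 (chr17:12769697-12769724, minus strand): ccgactcaggTCACGTGAcgctccgggg
Cln3 site 1 (chr7:126583369-126583395, minus strand): aaccctcaagCACGTGAtggaaggctc
Cln3 site 2 (chr7:126583341-126583368, minus strand): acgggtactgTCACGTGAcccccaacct
Glb1 (chr9:114401019-114401045, plus strand): tgcttctgagTCACGTGgcctacagag
Atp6v0d1 (chr8:105566051-105566078, minus strand): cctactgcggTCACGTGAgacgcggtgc
Atp6v1a (chr16:44139374-44139401, minus strand): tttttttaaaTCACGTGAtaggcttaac
Lipa had the largest change with lactation and Cd63 the largest on NZB day 21, and the windows of both lack TCACGTG. The 150 bases before their RefSeq starts are printed in lower case for comparison, since neither carries the motif.
Lipa (chr19:34527475-34527624, minus strand): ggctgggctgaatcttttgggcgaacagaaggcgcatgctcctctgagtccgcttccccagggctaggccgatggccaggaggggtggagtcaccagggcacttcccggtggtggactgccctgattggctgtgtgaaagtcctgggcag
Cd63 (chr10:128909195-128909344, plus strand): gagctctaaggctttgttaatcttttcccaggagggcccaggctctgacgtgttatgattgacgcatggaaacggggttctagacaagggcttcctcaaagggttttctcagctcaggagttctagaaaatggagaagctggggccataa
The STAT core TTCNNNGAA, searched on both strands, was present in 2 of the 34 windows (Arsa and Cln3, 5.88%). It was in 8.3% of all windows and in 8.51% of the tested genes with a window. These are matches of letters, and binding was not measured.

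Sequencing gave about 7030000 to 24250000 reads a mouse (the mean of its 2 deposited columns). Genes of milk proteins took 1.46% ± 0.49 of the reads of non-lactating NZB glands and 74.1% ± 1.65, 72.0% ± 3.55 and 24.4% ± 6.19 on days 8, 14 and 21 (SD, n = 3 each). In C57 glands they took 0.45% ± 0.02 without lactation and 74.3% ± 2.73, 70.7% ± 5.98 and 70.6% ± 7.82 on days 8, 14 and 21. Any other gene is therefore diluted in CPM by a different amount in each group, so 19 milk protein genes were removed and the rest rescaled to the total of a CPM, which is called non-milk CPM here and rests on about 4860000 to 15810000 reads a mouse. Fold changes are log2 differences of non-milk CPM + 1, given ± SE, and a gene is called where limma's adjusted p is under 0.05. The lowest counts among the 41 genes in any mouse were 14 reads for Gla and 17 for Hexa. Library counts of a bulk gland do not tell fewer cells of a type from less RNA per cell.

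**Figure D1:**
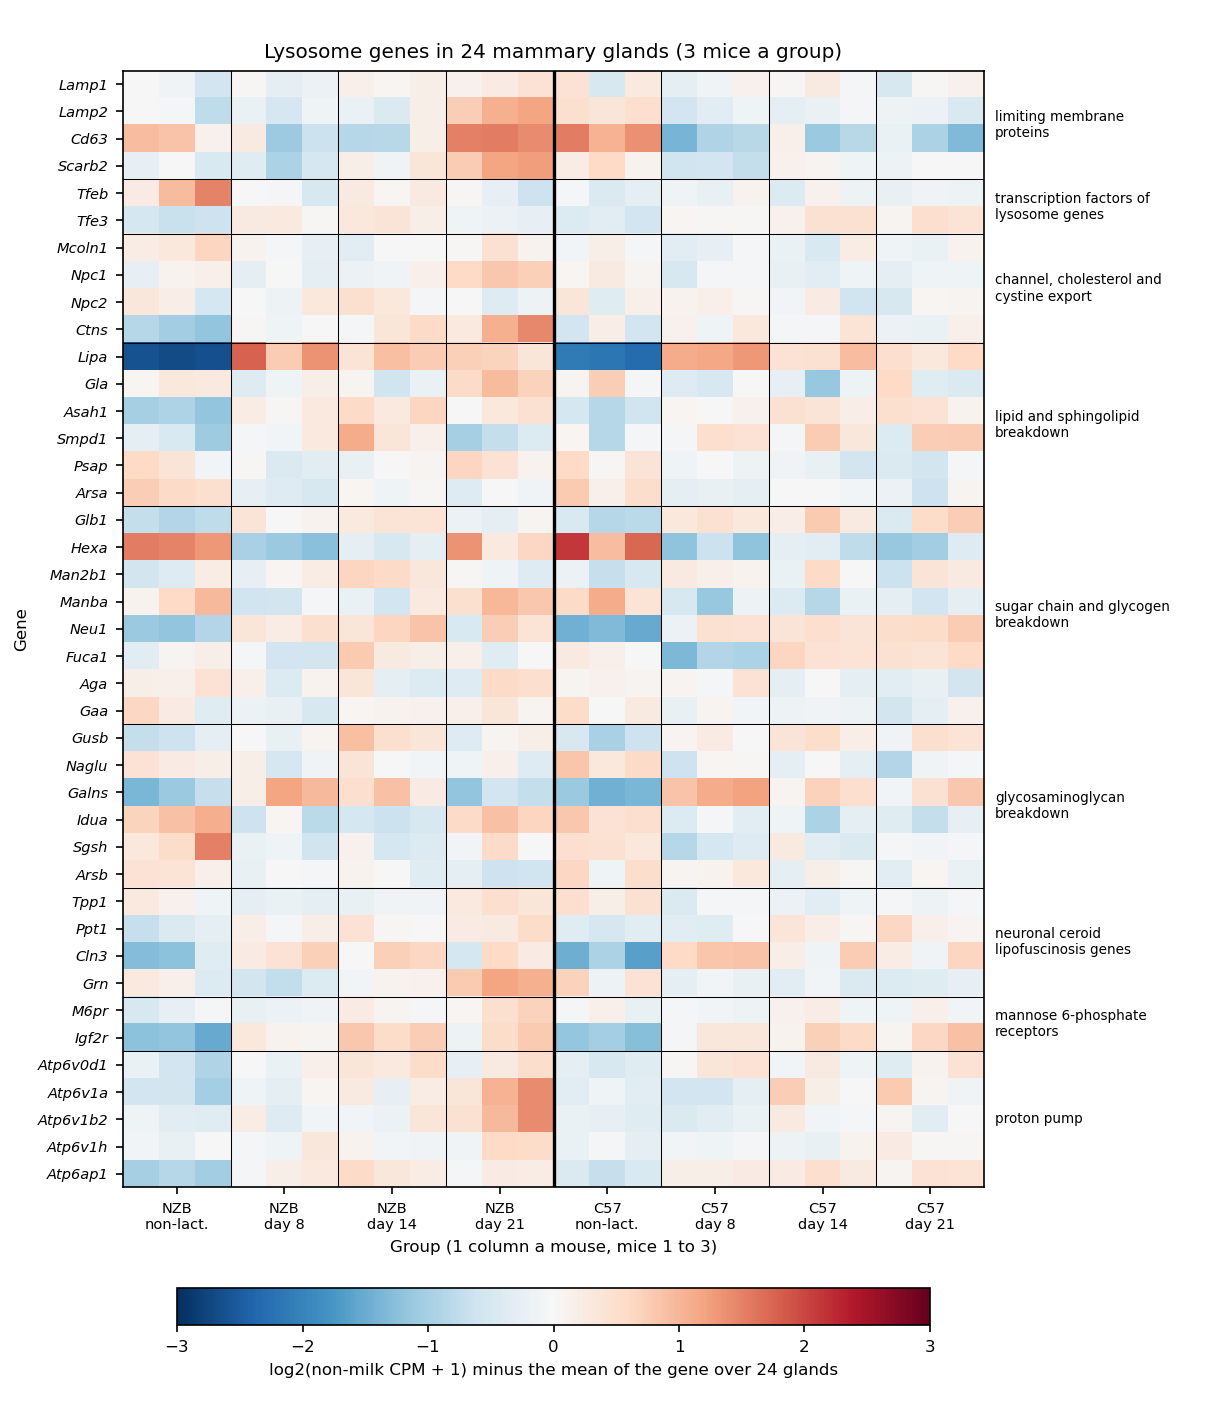
Non-milk CPM of the 41 lysosome genes (rows, ordered by role) in the 24 glands (columns, NZB mice first), as the log2 difference from the mean of the gene over all glands, red for higher and blue for lower. Lipa is blue in the 6 non-lactating glands (68.3 ± 1.59 non-milk CPM in NZB and 93.5 ± 6.03 in C57, SD, n = 3 each), and Cd63 is red in the NZB day 21 glands (97.0 ± 3.96).

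The first comparison asks which lysosome genes differ between lactating and non-lactating glands. In C57 glands on day 8, 12 of the 41 genes were higher than in non-lactating C57 glands and 12 were lower. Of all tested genes 12.8% were higher and 30.2% lower. In NZB glands on day 8 the counts against non-lactating NZB glands were 12 higher and 10 lower, with 14.5% and 31.4% of all genes. The lower count was 6 without non-lactating NZB mouse 2 or NZB day 8 mouse 2. In neither genotype did the share of the 41 genes that were lower exceed that of all genes. The median log2 fold change of the 41 genes was 0.06 in NZB and -0.06 in C57 glands, beside -0.29 and -0.29 for all genes. Lipa, Neu1, Cln3 and Igf2r were among the genes higher in both genotypes, and Cd63, Hexa, Manba and Idua among those lower in both.

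Lipa, the acid lipase that frees cholesterol and fatty acids from lipids taken into lysosomes, had 69.9, 66.8 and 68.3 non-milk CPM in non-lactating NZB glands, 1470.4, 736 and 1103 on day 8, 575, 806 and 735 on day 14 and 708, 680.4 and 559 on day 21. In C57 glands it had 98.7, 94.9 and 86.9 without lactation, 932, 964 and 1055 on day 8, 587, 592 and 815 on day 14 and 607, 535 and 654 on day 21. Every lactating gland was above every non-lactating gland of either genotype, with the highest group means on day 8. On day 8 the fold change was 3.94 ± 0.20 (adjusted p = 9.94e-13) in NZB glands and 3.38 ± 0.20 (adjusted p = 1.51e-11) in C57 glands, and Lipa was the one gene of the set that was also higher on all 3 days in both genotypes when milk genes were kept in the totals.

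Per kilobase of exon, where levels of different genes can be set side by side, Psap, Lamp1 and Lipa led the set in each of the 6 lactating groups. Lipa stood at 163 and 145 non-milk CPM per kb on day 8 in NZB and C57 glands, against 10.1 and 13.8 in non-lactating ones. Psap, the precursor of the saposins that help sphingolipid hydrolases, had 210.0 and 230.0 per kb on day 8, against 306 and 315 without lactation.

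Another 7 genes were, like Lipa, higher than in non-lactating glands on all 3 days in both genotypes: Asah1, Glb1, Neu1, Cln3, Igf2r, Atp6ap1 and Tfe3. Of all genes 5.41% were higher in all 6 comparisons. Neu1, the sialidase that removes sialic acid from glycoproteins, had 59.6, 54.2 and 64.7 non-milk CPM in NZB glands on day 8, against 20.7, 19.9 and 24.8 in non-lactating NZB glands. In C57 glands it had 40.8, 64.0 and 63.0 on day 8, against 16.5, 17.8 and 15.6 without lactation. The groups did not overlap in either genotype, and the fold changes were 1.41 ± 0.23 (adjusted p = 2.58e-05) and 1.67 ± 0.23 (adjusted p = 3.04e-06). Igf2r, the large mannose 6-phosphate receptor, had 442, 380.0 and 378 non-milk CPM in NZB glands on day 8, against 149, 155 and 123 in non-lactating NZB glands. In C57 glands it had 345, 452 and 450.3, against 158, 173 and 145. Here too each lactating gland was above each non-lactating one, by 1.49 ± 0.22 (adjusted p = 1.09e-05) and 1.38 ± 0.22 (adjusted p = 2.62e-05). Cln3, a membrane protein whose loss causes juvenile Batten disease, had 43.4, 49.5 and 60.7 in NZB glands on day 8, against 14.3, 15.1 and 28.5 without lactation. In C57 glands it had 56.0, 65.9 and 67.2, against 12.6, 18.4 and 11.2, and the fold changes were 1.42 ± 0.30 (adjusted p = 0.000605) and 2.11 ± 0.30 (adjusted p = 6.23e-06). Asah1, the acid ceramidase, was higher by 1.22 ± 0.15 (adjusted p = 9.98e-07) in NZB and 0.72 ± 0.15 (adjusted p = 0.000517) in C57 glands. Glb1, the lysosomal beta-galactosidase, was higher by 0.95 ± 0.23 (adjusted p = 0.00163) and 1.08 ± 0.23 (adjusted p = 0.000522). Atp6ap1, an accessory subunit of the proton pump, was higher by 1.12 ± 0.15 (adjusted p = 2.09e-06) and 0.72 ± 0.15 (adjusted p = 0.00036), and Tfe3 by 0.81 ± 0.14 (adjusted p = 4.74e-05) and 0.49 ± 0.14 (adjusted p = 0.00583). Of these 7 genes, Neu1, Igf2r, Asah1, Glb1, Atp6ap1 and Tfe3 turned negative in both genotypes, and Cln3 in NZB glands, on the deposited scale with milk genes in the totals.

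Galns, which removes sulfate from keratan and chondroitin sulfate, followed lactation with a different end. In NZB glands it had 13.3, 16.1 and 22.1 non-milk CPM in non-lactating NZB glands, 41, 82.8 and 71.8 on day 8, 51.2, 67.6 and 43.2 on day 14 and 15.4, 23.9 and 21.6 on day 21. In C57 glands it had 16.1, 12.6 and 13.4 without lactation, 66.0, 79.6 and 84.4 on day 8, 38.1, 59.1 and 51.3 on day 14 and 34.2, 50.1 and 63.7 on day 21. On day 8 it was higher by 1.84 ± 0.27 (adjusted p = 7.45e-06) in NZB glands, a change that vanished on the deposited scale at -0.03, and by 2.37 ± 0.27 (adjusted p = 2.52e-07) in C57 glands. On day 21 the NZB glands overlapped with the non-lactating NZB glands, and the C57 glands stayed above the non-lactating C57 glands.

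On the lower side, 9 genes were below the non-lactating level on all 3 days in C57 glands: Lamp2, Cd63, Arsa, Hexa, Manba, Naglu, Idua, Tpp1 and Grn. Of all genes 20.1% were lower on all 3 C57 days, so the 9 of 41 are near the background. Arsa, which removes sulfate from sulfatides, was the one gene of the set that was lower on all 3 days in NZB glands too, where 8.33% of all genes were lower in all 6 comparisons. Hexa, a hydrolase of ganglioside breakdown, had 27.4, 26.2 and 23.0 non-milk CPM in non-lactating NZB glands, 3.99, 3.51 and 3.08 on day 8, 7.08, 6.00 and 7.12 on day 14 and 23.7, 10.9 and 14.1 on day 21. In C57 glands it had 41.4, 17.4 and 31.1 without lactation, 3.23, 5.25 and 3.21 on day 8, 6.90, 6.64 and 4.77 on day 14 and 3.42, 3.74 and 6.47 on day 21. The fold change on day 8 was -2.55 ± 0.30 (adjusted p = 4.68e-07) in NZB and -2.60 ± 0.30 (adjusted p = 3.45e-07) in C57 glands, with no overlap with non-lactating glands. Cd63, a tetraspanin of late endosomes and lysosomes, was lower, at -2.36 ± 0.36 (adjusted p = 1.42e-05) in C57 glands on day 8 (12.2, 17.9 and 18.8 non-milk CPM, against 100.4, 71.5 and 90.1 in non-lactating C57 glands).

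On the later days the C57 counts against non-lactating C57 glands were 11 higher and 10 lower on day 14, with 13.6% and 23.9% of all genes, and 11 higher and 11 lower on day 21, with 13.4% and 24.9%. In NZB glands day 14 gave 16 higher and 7 lower, with 15.1% and 29.7% of all genes. The lower count was 6 on C57 day 14 and 7 on C57 day 21 without non-lactating C57 mouse 1, and 4 on NZB day 14 without NZB day 14 mouse 2. The counts against non-lactating glands depended on the scaling. TMM scaling, which centres the bulk of the genes, gave an all-gene median of -0.05 on C57 day 8, in place of -0.29, and 14 higher and 7 lower on C57 day 8, 14 and 4 on C57 day 14, 14 and 5 on C57 day 21, 15 and 6 on NZB day 8, and 19 and 3 on NZB day 14. With TMM 18% to 21.0% of all genes were higher and 20.7% to 23.7% lower in these 5 comparisons. With milk genes kept in the totals, Lipa alone was higher in each of them and 34 to 37 genes were lower, beside 2.17% to 3.64% and 86.3% to 88.8% of all genes and all-gene medians of -1.59 to -1.81. Markers of other cells moved with these differences. In NZB day 8 glands, against non-lactating NZB glands, all 12 white adipocyte, 8 of 10 fibroblast, all 10 endothelial, 9 of 15 macrophage, all 10 B cell and 8 of 10 T cell markers were lower. All 10 myoepithelial, 7 of 10 luminal epithelial and 3 of 7 plasma cell markers were higher, with 1 macrophage marker higher and 1 luminal and 1 plasma cell marker lower. In C57 day 8 glands, against non-lactating C57 glands, all 12 white adipocyte, all 10 fibroblast, 8 of 10 endothelial and 9 of 15 macrophage markers were lower. B and T cell markers gave 0 calls. In these C57 glands 3 of 10 myoepithelial, 3 of 10 luminal epithelial and 3 of 7 plasma cell markers were higher, with 4 luminal markers and 1 plasma cell marker lower. Luminal markers summed to 2113 to 2187 non-milk CPM on day 8, against 90.4 to 434 without lactation, in NZB glands, and to 1775 to 1918, against 757 to 1685, in C57 glands. The part of these cells in the result was not tested.

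Between lactation days within a genotype few genes of the set were called, NZB day 21 aside. With 3 mice a group, a gene without a call is not shown to be unchanged. NZB day 14 against NZB day 8 gave 0 calls with limma (8 genes at an unadjusted p under 0.05 and 0 calls with limma voom on recovered reads), with 0.225% of all genes higher and 0.26% lower. C57 day 21 against C57 day 14 gave 0 calls (0 genes at an unadjusted p under 0.05 and 0 with limma voom), with 0.0% of all genes higher and 0.0% lower. C57 day 14 against C57 day 8 gave 1, with 1.4% of all genes higher: Fuca1, the lysosomal fucosidase, had 71.0, 61.3 and 60.3 non-milk CPM on day 14, against 17.2, 24.1 and 23.1 on day 8. Its groups did not overlap, and the fold change was 1.55 ± 0.20 (adjusted p = 0.000187).

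**Figure D2:**
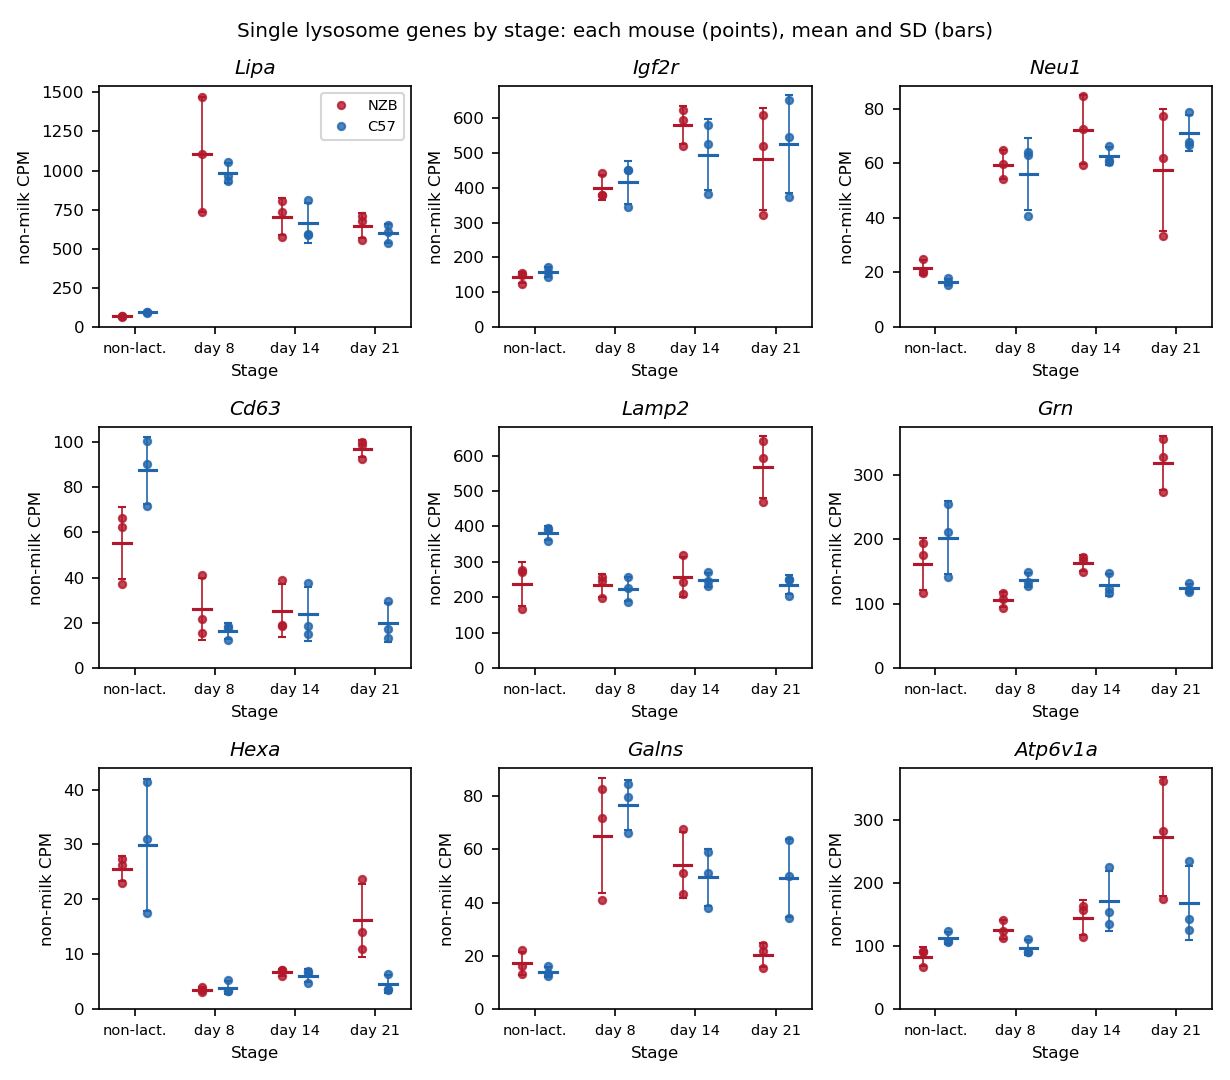
Non-milk CPM (vertical axes from 0) of single lysosome genes by stage (horizontal axes), each point 1 mouse, bars the mean and SD, NZB in red on the left and C57 in blue on the right of each stage. On day 21 Cd63 is at 98.4, 100.1 and 92.6 in NZB and 29.8, 17.3 and 13.1 in C57 glands, and Lipa is at 708, 680.4 and 559 and 607, 535 and 654.

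The next comparison sets the genotypes against each other at each stage. On day 8 and on day 14 limma called 0 of the 41 genes between NZB and C57 glands, with 1 gene on day 8 and 0 on day 14 at an unadjusted p under 0.05 and 0 calls with limma voom on both days. Of all genes, 0.0296% were higher and 0.00592% lower on each of those days. In non-lactating glands 1 gene was higher and 1 lower, with 1.66% and 3.38% of all genes. Tfeb had 19.3, 32.4 and 47.6 non-milk CPM in NZB and 15.5, 11.8 and 13.0 in C57 non-lactating glands (1.16 ± 0.25 (adjusted p = 0.00842)), and Lamp2, a major membrane glycoprotein, had 277, 272 and 166 in NZB and 391, 360.4 and 396 in C57 (-0.72 ± 0.20 (adjusted p = 0.0358)). The 10 B cell markers summed to 49.3 to 2236 non-milk CPM in NZB and 35.8 to 50.6 in C57 non-lactating glands, the high values being those of NZB mice 2 and 3, and all 10 were called higher. Luminal epithelial markers, 8 of 10 of them called lower, summed to 90.4 to 434 in NZB and 757 to 1685 in C57 non-lactating glands. Myoepithelial markers were lower in 9 of 10, and T cell markers higher in 4 of 10. NZB mouse 1, the one without the high B cell values, had 19.3 and 277 non-milk CPM of Tfeb and Lamp2. A fit without NZB mice 2 and 3 rests on that 1 gland, with the spread taken from the other groups, and has less power. It gave Tfeb 0.50 (adjusted p = 0.683) and Lamp2 -0.46 (adjusted p = 0.596), neither called. Leaving out NZB mouse 3 or C57 mouse 2 alone ended both calls, and leaving out C57 mouse 1 or 3 ended that of Lamp2. The part of the other cells was not tested.

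On lactation day 21 the genotypes differed. In NZB day 21 glands 12 of the 41 genes were higher and 4 lower than in NZB day 14 glands, where 15.5% of all genes were higher and 5.76% lower. Against C57 day 21 glands 12 were higher and 4 lower as well, with 18.3% and 5.67% of all genes. The lower count against C57 day 21 was 1 without C57 day 21 mouse 2, and 2 without C57 day 21 mouse 3 or NZB day 21 mouse 2. The counts share the NZB day 21 mice, and 10 genes were higher in both, where 12.4% of all genes were: the membrane proteins Lamp2, Cd63 and Scarb2, the cholesterol exporter Npc1, the hydrolases Hexa, Manba, Idua and Tpp1, the growth factor precursor Grn, and the pump subunit Atp6v1b2. Tfe3, Smpd1 and Galns were lower in both, as were 4.47% of all genes. The median fold change of the 41 genes was 0.14 against NZB day 14 and 0.22 against C57 day 21, beside 0.26 and 0.28 for all genes, so both medians of the set were below those of all genes.

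Among the proteins of the limiting membrane 3 of 4 were higher in both comparisons, beside 12.4% of all genes. Cd63, the tetraspanin, had 98.4, 100.1 and 92.6 non-milk CPM in NZB day 21 glands, against 18.5, 18.8 and 39.0 in NZB day 14 and 29.8, 17.3 and 13.1 in C57 day 21 glands. The NZB day 21 mice lay close together and above every other lactating gland, and the fold changes were 1.98 ± 0.36 (adjusted p = 0.000632) and 2.30 ± 0.36 (adjusted p = 0.000108). Lamp2, which is needed for the fusion of autophagosomes with lysosomes, had 470.4, 592 and 642 non-milk CPM in NZB day 21 glands, against 244, 208 and 318 in NZB day 14 and 253, 249 and 205 in C57 day 21 glands. The groups did not overlap, and the fold changes were 1.15 ± 0.20 (adjusted p = 0.00034) and 1.26 ± 0.20 (adjusted p = 0.000101). Scarb2, an abundant membrane glycoprotein of lysosomes, had 194, 259 and 271 non-milk CPM in NZB day 21 glands, against 128, 105 and 146 in NZB day 14 and 101, 112 and 113 in C57 day 21 glands. It too was highest in all 3 NZB day 21 mice, by 0.92 ± 0.18 (adjusted p = 0.00114) and 1.13 ± 0.18 (adjusted p = 0.000127). Lamp1, the other major membrane glycoprotein, had 357, 383 and 439.9 in NZB day 21, 361, 339 and 364 in NZB day 14 and 233, 332 and 354 in C57 day 21 glands, and was called in none of the comparisons made.

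Among the transporters 1 of 4 was higher in both comparisons and 1 in the comparison of genotypes alone. The shares of all genes were 12.4% in both and 18.3% in the comparison of genotypes. Npc1, which moves cholesterol out of lysosomes, had 153, 176 and 167 non-milk CPM in NZB day 21 glands, against 88.6, 92.8 and 113 in NZB day 14 and 82.6, 91.6 and 91.2 in C57 day 21 glands. The groups did not overlap (0.75 ± 0.15 (adjusted p = 0.0015) and 0.89 ± 0.15 (adjusted p = 0.000238)), while its soluble partner Npc2 was not called, with 158, 123 and 144 in NZB day 21 glands, 223, 199.5 and 156 in NZB day 14 and 115, 166 and 170.2 in C57 day 21 glands. Ctns, the cystine exporter, had 84.8, 144 and 187 non-milk CPM in NZB day 21 glands, against 66.0, 89.1 and 103 in NZB day 14 and 61.0, 59.9 and 76.1 in C57 day 21 glands. It was higher than in C57 day 21 glands by 1.0 ± 0.25 (adjusted p = 0.00516), a call lost under TMM, and overlapped with NZB day 14 in NZB mouse 1. Mcoln1, the calcium channel of the lysosomal membrane, had 73.9, 99.4 and 77.3 in NZB day 21 and 65.4, 62.4 and 77.7 in C57 day 21 glands and was not called.

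Of the 14 enzymes and helpers that break down lipids, sugar chains and glycogen, 3 were higher and 1 was lower than in NZB day 14 glands. Both counts are near the shares of all genes, 15.5% and 5.76%. Hexa, which takes part in ganglioside breakdown, had 23.7, 10.9 and 14.1 non-milk CPM in NZB day 21 glands, against 7.08, 6.00 and 7.12 in NZB day 14 and 3.42, 3.74 and 6.47 in C57 day 21 glands. The NZB day 21 glands were above both other groups without overlap (1.09 ± 0.30 (adjusted p = 0.0132) and 1.61 ± 0.30 (adjusted p = 0.000587)). Manba, the beta-mannosidase, had 17, 24.6 and 21.5 non-milk CPM in NZB day 21 glands, against 10.2, 7.66 and 14.8 in NZB day 14 and 9.45, 7.59 and 9.66 in C57 day 21 glands. It was higher by 0.92 ± 0.30 (adjusted p = 0.0301) and 1.15 ± 0.30 (adjusted p = 0.00723). Gla, the alpha-galactosidase deficient in Fabry disease, was higher than in NZB day 14 glands alone, with 11.8, 15.5 and 12.7 against 8.09, 4.67 and 6.44 (0.97 ± 0.31 (adjusted p = 0.0296)). Psap was higher than in C57 day 21 glands, with 1047, 904 and 726 against 499, 458 and 649 (0.74 ± 0.21 (adjusted p = 0.0128)). Smpd1, the acid sphingomyelinase, had 29.7, 36.1 and 45.1 non-milk CPM in NZB day 21 glands, against 131, 77.1 and 66.8 in NZB day 14 and 44.9, 100 and 103 in C57 day 21 glands. It was lower, at -1.25 ± 0.32 (adjusted p = 0.00856) and -1.07 ± 0.32 (adjusted p = 0.0188), with an overlap between NZB mouse 3 and C57 mouse 1. Fuca1 was lower than in C57 day 21 glands, with 50.1, 35.0 and 45.6 against 62.9, 60.8 and 69.0 (-0.56 ± 0.20 (adjusted p = 0.043)). On the deposited scale the sign of Smpd1 turned in both comparisons and that of Fuca1 in the one between genotypes. Lipa showed no call: NZB day 21 glands had 708, 680.4 and 559, NZB day 14 575, 806 and 735 and C57 day 21 607, 535 and 654, and the groups overlapped.

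The 6 enzymes of glycosaminoglycan breakdown went both ways. Idua, which removes iduronic acid from heparan and dermatan sulfate, had 25.3, 31.8 and 26.6 non-milk CPM in NZB day 21 glands, against 11.3, 10.4 and 11.8 in NZB day 14 and 12.9, 9.81 and 13.9 in C57 day 21 glands. It was higher without overlap, by 1.24 ± 0.24 (adjusted p = 0.000968) and 1.14 ± 0.24 (adjusted p = 0.00155). Galns, the sulfatase described above, had 15.4, 23.9 and 21.6 non-milk CPM in NZB day 21 glands, against 51.2, 67.6 and 43.2 in NZB day 14 and 34.2, 50.1 and 63.7 in C57 day 21 glands. It was lower, again without overlap, at -1.36 ± 0.27 (adjusted p = 0.00112) and -1.22 ± 0.27 (adjusted p = 0.00218). Gusb, the beta-glucuronidase, was lower than in NZB day 14 glands, with 48.7, 67.3 and 71.7 against 121, 90.0 and 82.4 (-0.63 ± 0.20 (adjusted p = 0.0259)). The lower calls of Galns in both comparisons and of Gusb turned positive on the deposited scale. Naglu, Sgsh and Arsb were not called in either comparison.

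Of the 4 genes of neuronal ceroid lipofuscinosis, storage diseases of the brain, 2 were higher in both comparisons, beside 12.4% of all genes. Grn, the progranulin gene, had 273, 356 and 328 non-milk CPM in NZB day 21 glands, against 149, 168 and 173 in NZB day 14 and 118, 122 and 132 in C57 day 21 glands. The NZB day 21 glands were above all others of the series (0.96 ± 0.20 (adjusted p = 0.00157) and 1.35 ± 0.20 (adjusted p = 4.03e-05)). Tpp1, a tripeptidyl peptidase, was higher by 0.54 ± 0.14 (adjusted p = 0.01) and 0.47 ± 0.14 (adjusted p = 0.0199), in values 139.8, 162 and 147 in NZB day 21, 96.7, 106 and 105 in NZB day 14 and 109, 102 and 112 in C57 day 21 glands. Ppt1 and Cln3 were not called. Neither mannose 6-phosphate receptor was called. Igf2r had 321, 519 and 609 in NZB day 21, 623, 519 and 595 in NZB day 14 and 375, 546 and 653 in C57 day 21 glands.

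Of the 5 proton pump members, 2 were higher than in NZB day 14 glands and 1 than in C57 day 21 glands. The shares of all genes were 15.5% and 18.3%. Atp6v1b2, the B2 subunit of the catalytic part, had 172, 248 and 338 non-milk CPM in NZB day 21 glands, against 118, 111 and 162 in NZB day 14 and 133, 98.2 and 127 in C57 day 21 glands. The fold changes were 0.92 ± 0.21 (adjusted p = 0.00363) and 1.04 ± 0.21 (adjusted p = 0.00105), and the spread among the NZB day 21 mice was wide. Atp6v1a, the catalytic A subunit, had 175, 283 and 363 non-milk CPM in NZB day 21 glands, against 164, 114 and 158 in NZB day 14 and 235, 143 and 126 in C57 day 21 glands. It was higher than in NZB day 14 glands (0.86 ± 0.25 (adjusted p = 0.018)), whereas C57 mouse 1 overlapped with NZB mouse 1 on day 21 and the genotypes were not called apart. In all of Atp6v0d1, Atp6v1a, Atp6v1b2, Atp6v1h and Atp6ap1, NZB day 21 mouse 1 was the lowest of its group.

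Of the 2 transcription factors, 1 was lower in both comparisons, beside 4.47% of all genes. Tfe3, which binds the same motif as TFEB, had 99.2, 96.6 and 91.5 non-milk CPM in NZB day 21 glands, against 136, 142 and 124 in NZB day 14 and 115, 154 and 144 in C57 day 21 glands. It was lower without overlap, at -0.48 ± 0.14 (adjusted p = 0.0162) and -0.51 ± 0.14 (adjusted p = 0.00932), and higher by 0.93 and 0.86 on the deposited scale. Tfeb had 16.6, 13.5 and 10.3 in NZB day 21, 19.9, 16.9 and 19.6 in NZB day 14 and 13.8, 15.1 and 14.5 in C57 day 21 glands and was not called. Of the 12 genes with TCACGTG at the start, 2 (Gla and Atp6v1a) were higher than in NZB day 14 glands and 0 lower, and of the 22 genes whose window lacked it, 8 were higher and 3 lower. Against C57 day 21 glands the counts were 0 and 0 of 12, and 10 and 3 of 22. The 7 genes without a window gave 2 higher and 1 lower in both comparisons. Shares of all tested genes were 15.5% higher and 5.76% lower against NZB day 14, and 18.3% and 5.67% against C57 day 21 glands.

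**Figure D3:**
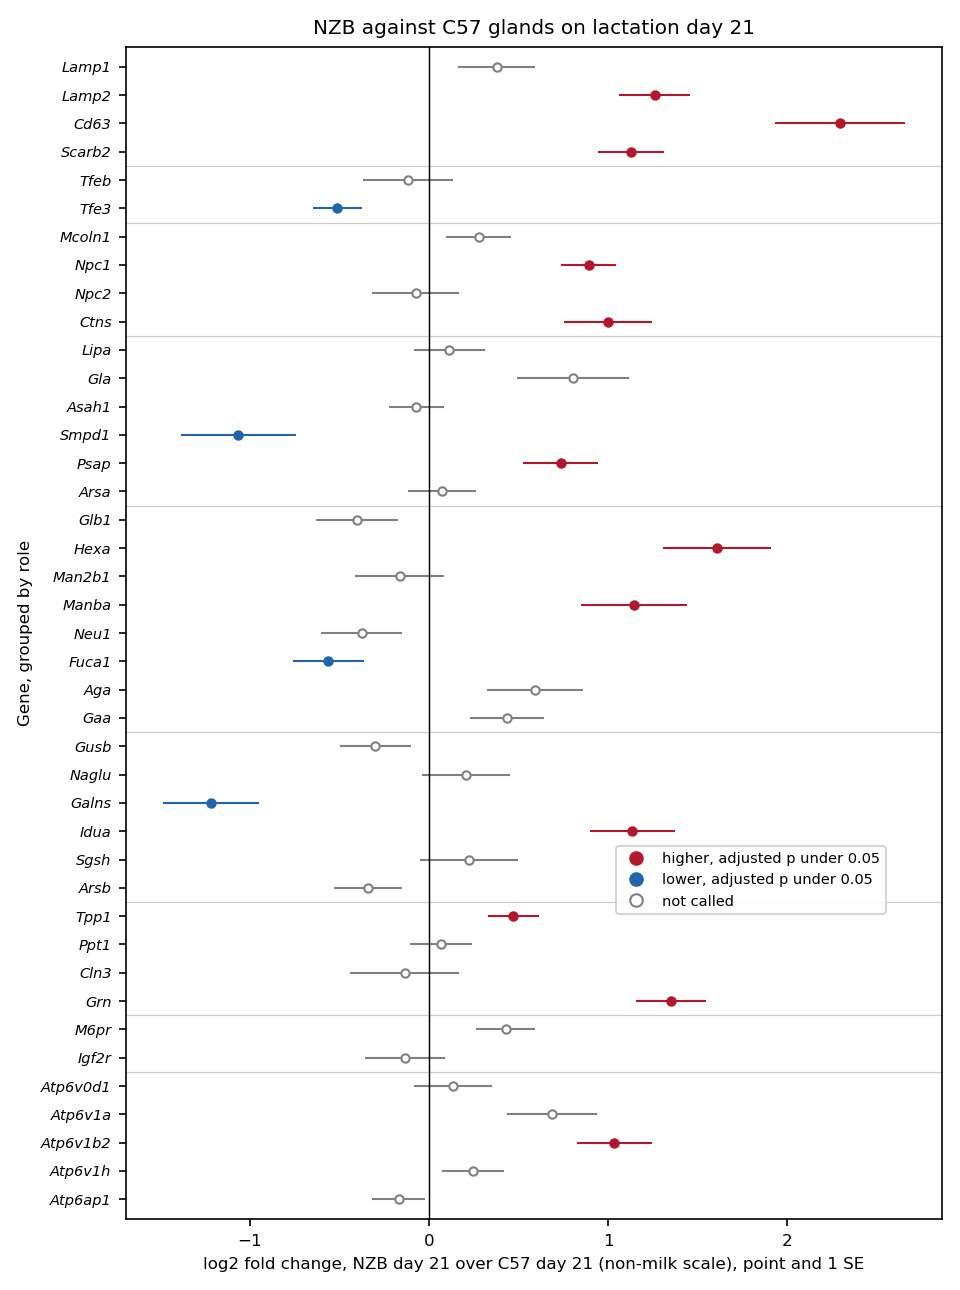
log2 fold change of non-milk CPM + 1 on lactation day 21, NZB over C57, for the 41 lysosome genes (rows, grouped by role), as point and 1 SE, with called genes filled. Cd63 at 2.30, Hexa at 1.61 and Grn at 1.35 are farthest to the right, and Galns at -1.22 and Smpd1 at -1.07 farthest to the left.

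The balance of higher and lower genes on day 21 depended on the scaling. In NZB day 21 against day 14 TMM scaling gave an all-gene median of 0.05, in place of 0.26, and 5 higher (Lamp2, Cd63, Scarb2, Npc1 and Idua) and 7 lower genes, the calls of Gla, Hexa, Manba, Tpp1, Grn, Atp6v1a and Atp6v1b2 being lost, beside 7.15% of all genes higher and 9.34% lower. Against C57 day 21 it gave 9 higher and 5 lower, with Ctns, Psap and Tpp1 lost, beside 9.11% and 9.63% of all genes. On the deposited scale, where the all-gene medians were 1.36 and 1.35, 39 genes were higher and 0 lower in both comparisons, beside 85.8% of all genes higher and 0.917% lower against NZB day 14, and 85.2% and 1.0% against C57 day 21. Without NZB day 14 mouse 2 the count against NZB day 14 was 8 higher and 2 lower, and without NZB day 14 mouse 1 the lower count was also 2.

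**Figure D4:**
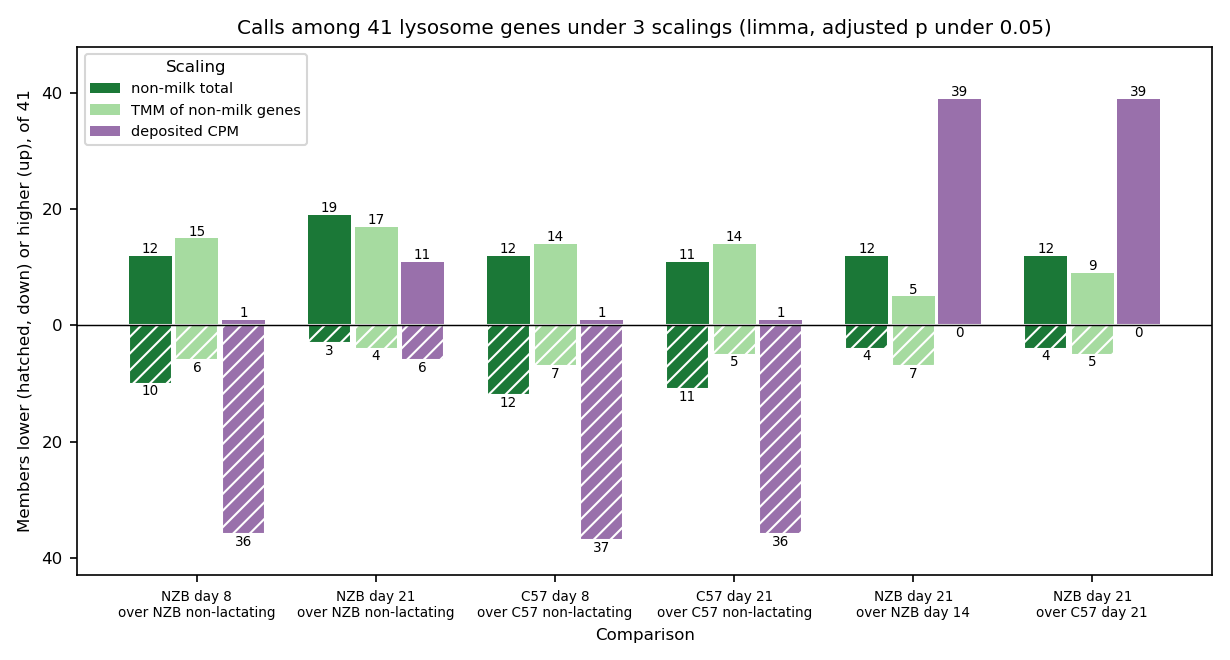
Number of the 41 lysosome genes called higher (upward bars) and lower (hatched, downward bars) by limma at an adjusted p under 0.05 in each comparison (horizontal axis), under 3 scalings. In NZB day 21 against NZB day 14 the bars are 12 and 4 on the non-milk scale, 5 and 7 under TMM and 39 and 0 on the deposited scale.

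Markers of several other cell types moved with the day 21 differences. Of 15 macrophage markers 10 were higher and 0 lower against NZB day 14, and 9 and 0 against C57 day 21, and their summed level was 1437 to 2022 non-milk CPM in NZB day 21, 318 to 1043 in NZB day 14 and 324 to 453 in C57 day 21 glands. Their defining genes were present in every group, with Adgre1 at 39.5, 24.6 and 31.6 in NZB day 21, 10.2, 11.7 and 12.7 in NZB day 14 and 13.4, 14.1 and 10.5 in C57 day 21 glands. White adipocyte markers were higher in 7 and 9 of 12, fibroblast markers in 4 and 8 of 10 and luminal epithelial markers in 4 and 6 of 10, with none of these lists' genes lower. Luminal markers summed to 2336 to 2940.0 in NZB day 21 and 1973 to 2261 in C57 day 21 glands, and white adipocyte markers to 1728 to 4939 and 838 to 1405. Plasma cell markers were higher in 1 and 3 of 7, with sums of 1675 to 2739 in NZB day 21, 1463 to 1675 in NZB day 14 and 1314 to 1365 in C57 day 21 glands. Myoepithelial markers were higher in 1 and 4 of 10, with sums of 1330.0 to 2084, 1390.0 to 1572 and 913 to 1280.0 in the same groups. Of 10 endothelial markers 1 was higher and 1 lower in both comparisons, and of 10 B cell and 10 T cell markers 0 were called in either. Neutrophil markers summed to 55.2 to 65.8 in NZB day 21 glands. That range overlapped with 43.6 to 56.1 in NZB day 14 and 45.2 to 81.8 in C57 day 21 glands. Of 16 genes known to respond to involution, the regression of the gland, 6 were higher and 1 lower against NZB day 14, and 6 and 0 against C57 day 21. Of all genes 15.5% and 18.3% were higher and 5.76% and 5.67% lower. The involution genes summed to 14880 to 18420 in NZB day 21, 4751 to 14440 in NZB day 14 and 7215 to 9052 in C57 day 21 glands. Cd14 is both in this list and among the macrophage markers. The part of any of these cells in the lysosome gene differences was not tested.

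**Figure D5:**
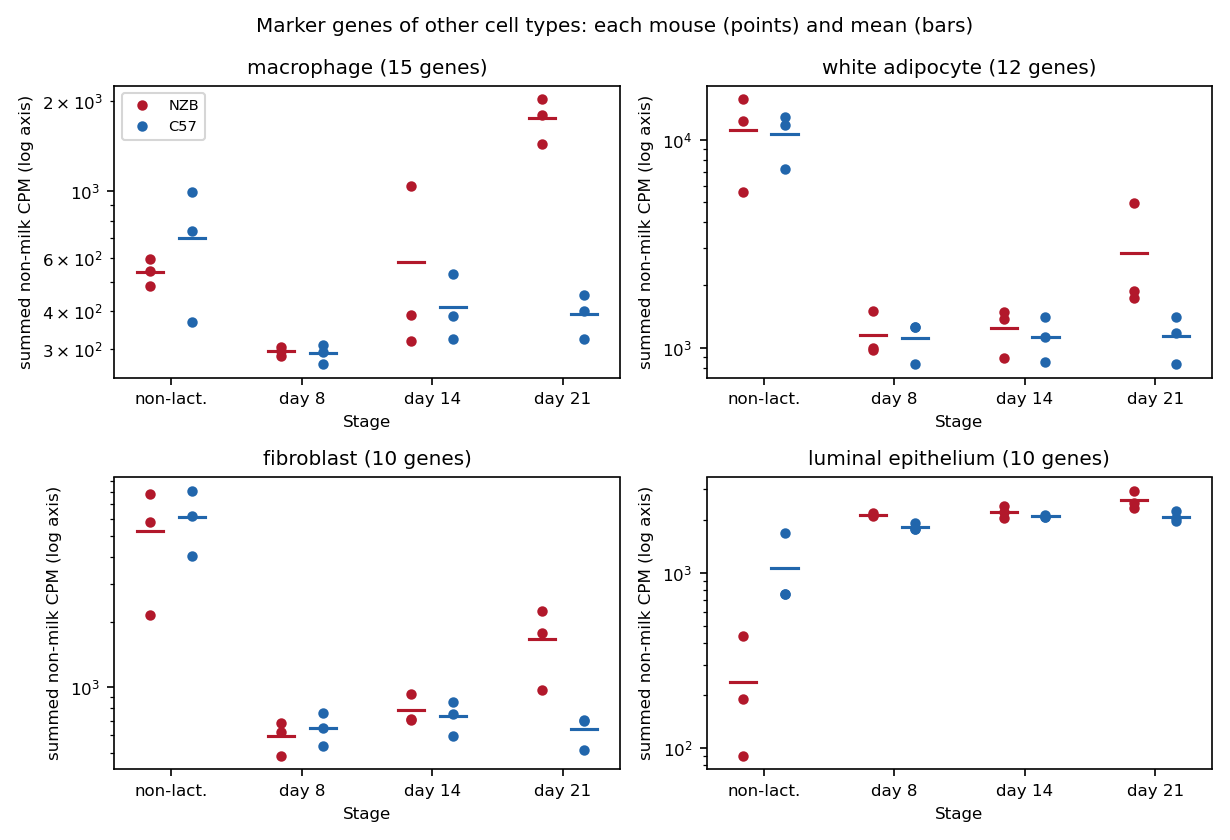
Summed non-milk CPM of marker genes of other cell types (log axis) by stage, each point 1 mouse and bars the mean, NZB in red on the left and C57 in blue on the right. On day 21 the macrophage sum is 1437 to 2022 in NZB and 324 to 453 in C57 glands.

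Against non-lactating NZB glands, NZB day 21 glands had 19 genes higher and 3 lower, with 16.5% and 15.2% of all genes, and a median of 0.49 beside -0.07 for all genes. All 5 proton pump members were higher: Atp6v1a by 1.66 ± 0.25 (adjusted p = 2.9e-05), Atp6v1b2 by 1.22 ± 0.21 (adjusted p = 0.000111), Atp6ap1 by 1.11 ± 0.15 (adjusted p = 5.46e-06), Atp6v0d1 by 0.75 ± 0.22 (adjusted p = 0.0111) and Atp6v1h by 0.46 ± 0.17 (adjusted p = 0.0465). Atp6v1a had 175, 283 and 363 non-milk CPM on day 21, against 90.5, 92.9 and 66.3 without lactation, and did not overlap, whereas Atp6v0d1 and Atp6v1h overlapped in 1 mouse or more. Both mannose 6-phosphate receptors were higher, Igf2r by 1.71 ± 0.22 (adjusted p = 4.21e-06) and M6pr by 0.65 ± 0.17 (adjusted p = 0.00423). Ctns had 84.8, 144 and 187 on day 21, against 37.6, 32.5 and 29.7 without lactation (1.96 ± 0.25 (adjusted p = 2.77e-06)). Lamp2 was higher by 1.28 ± 0.20 (adjusted p = 3.72e-05), Scarb2 by 1.30 ± 0.18 (adjusted p = 9.81e-06), Npc1 by 0.70 ± 0.15 (adjusted p = 0.00124) and Grn by 1.0 ± 0.20 (adjusted p = 0.000446). With Atp6v1b2 these were the 5 genes that were higher in NZB day 21 glands than in NZB day 14, C57 day 21 and NZB non-lactating glands, as were 4.05% of all genes. The lower genes were Tfeb (-1.17 ± 0.25 (adjusted p = 0.00107)), Arsa (-0.76 ± 0.19 (adjusted p = 0.00364)) and Arsb, the arylsulfatase B (-0.83 ± 0.19 (adjusted p = 0.00181)). Tfeb had 16.6, 13.5 and 10.3 on day 21, against 19.3, 32.4 and 47.6 in non-lactating NZB glands, the highest being non-lactating mouse 3, whose B cell marker sum was also the highest. Without non-lactating mice 2 and 3, a fit that rests on 1 non-lactating NZB gland with the spread taken from the other groups, the count was 15 higher and 2 lower. TMM gave 17 and 4 (with 17.3% and 15.1% of all genes), and the deposited scale gave 11 and 6 (with 9.84% and 31.8%). Markers of other cells moved here too: 9 of 10 luminal epithelial, all 10 myoepithelial, 5 of 7 plasma cell and 5 of 15 macrophage markers were higher. On the other side, 11 of 12 white adipocyte, 4 of 10 fibroblast, 8 of 10 endothelial, 9 of 10 B cell and 4 of 10 T cell markers were lower. Luminal sums were 2336 to 2940.0 non-milk CPM on day 21, against 90.4 to 434 without lactation, macrophage sums 1437 to 2022, against 485 to 594, and white adipocyte sums 1728 to 4939, against 5621 to 15600.0. Their part in the result was not tested.

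The change from one stage to another was then compared between the genotypes with an interaction term. From non-lactating to day 8 it differed for 0 of the 41 genes (7 at an unadjusted p under 0.05, 0 with limma voom), with 0.662% of all genes higher and 0.0473% lower. From non-lactating to day 21 it was higher in NZB glands for 11 genes and lower for 2, with 12.7% and 4.1% of all genes, and from day 14 to day 21 higher for 7 and lower for 1, with 3.71% and 2.28%. In a fit with non-lactating NZB mouse 1 alone, without mice 2 and 3, the lower count from non-lactating to day 21 was 0. Leaving out NZB day 14 mouse 2 gave 1 higher and 0 lower from day 14 to day 21. Cd63 had the largest difference in both, 2.98 ± 0.51 (adjusted p = 0.00037) and 2.19 ± 0.51 (adjusted p = 0.0136). It averaged 55.2 ± 15.8 non-milk CPM in NZB and 87.4 ± 14.6 in C57 glands without lactation, 25.4 ± 11.7 in NZB and 23.9 ± 12.1 in C57 glands on day 14, and 97.0 ± 3.96 in NZB and 20.1 ± 8.65 in C57 glands on day 21 (SD, n = 3 each). Galns had the lowest, -1.46 ± 0.38 (adjusted p = 0.00974) and -1.34 ± 0.38 (adjusted p = 0.0384). Under TMM the counts were 8 and 2 from non-lactating to day 21, with 9.38% and 6.29% of all genes, and 1 (Cd63) and 1 (Galns) from day 14 to day 21, with 1.41% and 3.31%. On the deposited scale they were 36 and 0, with 67.2% and 1.43% of all genes, and 37 and 0, with 74.5% and 0.527%, and Galns was at -0.10 and 0.06.

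The other genes of the pathway, in lists that the 41 genes do not include, were counted in the same comparisons. Of all genes 15.5% were higher and 5.76% lower in NZB day 21 than in NZB day 14 glands. Against C57 day 21 glands the shares were 18.3% and 5.67%. Of 13 tested cathepsins 5 were higher and 1 lower in NZB day 21 than in NZB day 14 glands, and likewise against C57 day 21. Ctsl, a cysteine protease, had 495, 648 and 885 non-milk CPM in NZB day 21, 111, 112 and 283 in NZB day 14 and 119, 96.4 and 123 in C57 day 21 glands, with fold changes of 2.10 ± 0.29 (adjusted p = 3.78e-05) and 2.54 ± 0.29 (adjusted p = 2.47e-06). Ctsc, which activates granule proteases, was the lower one (-1.37 ± 0.32 (adjusted p = 0.00453) and -1.42 ± 0.32 (adjusted p = 0.00275)). Of 23 other enzymes and cofactors 8 were higher and 2 lower against NZB day 14, and 11 and 2 against C57 day 21. Gm2a, an activator protein of ganglioside breakdown, had 301, 159.8 and 186 in NZB day 21, 837, 1246 and 741 in NZB day 14 and 418, 959 and 710.0 in C57 day 21 glands (-2.14 ± 0.30 (adjusted p = 4.5e-05) and -1.66 ± 0.30 (adjusted p = 0.000427)).

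Of 20 other lysosomal membrane proteins 4 were higher and 0 lower against NZB day 14, and 9 and 0 against C57 day 21, among them Cd68, a glycoprotein abundant in macrophages (1.44 ± 0.37 (adjusted p = 0.00835) and 1.78 ± 0.37 (adjusted p = 0.00132)). Of 18 other proton pump subunits 4 were higher and 2 lower in both comparisons. Atp6v0e, a small membrane subunit, was higher by 0.73 ± 0.18 (adjusted p = 0.00616) and 1.0 ± 0.18 (adjusted p = 0.000386), and Atp6v0a1, a large membrane subunit, was lower, at -0.98 ± 0.17 (adjusted p = 0.00051) and -1.04 ± 0.17 (adjusted p = 0.000209), both of its values being positive on the deposited scale. On day 8 of lactation the same 18 subunits were 10 higher and 2 lower in NZB and 9 higher and 3 lower in C57 glands than without lactation. Of all genes 14.5% were higher and 31.4% lower in NZB, and 12.8% and 30.2% in C57 glands. Of 12 genes of mannose 6-phosphate tagging and sorting 3 were higher and 2 lower against NZB day 14, and 2 and 1 against C57 day 21, with the retromer subunits Vps26a (0.82 ± 0.19 (adjusted p = 0.00382) and 0.69 ± 0.19 (adjusted p = 0.0105)) and Vps35 higher in both. Of 20 genes of TFEB and mTORC1 control at the lysosome 3 were higher and 1 lower, and 2 and 1, with Lamtor2, a scaffold of mTORC1 on the lysosome, lower (-1.34 ± 0.28 (adjusted p = 0.00223) and -1.16 ± 0.28 (adjusted p = 0.00491)). In neither comparison did the share of this list, higher or lower, exceed that of all genes.

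Exons of some of the 41 genes overlap another gene in the GENCODE annotation (GRCm38), and the sources used here do not say whether reads were counted by strand. On the opposite strand the share was 18.8% of the exonic bases of Arsa, 12.8% of Hexa, 21.6% of Sgsh, 32.3% of Arsb with 1 gene, 9.3% of Lamp1, 7.6% of Cln3 and 2.0% of Grn. It was also 4.5% of Npc1 with Rmc1, and 3.4% and 2.9% of Idua with Slc26a1 and Dgkq. On the same strand, Glb1 shared 5.5% with Tmppe. For Hexa (Tmem202), Arsa, Npc1 and Arsb no partner was among the tested genes. Whether it failed the filter or its symbol is absent was not checked. Cd63 (chr10:128900989-128912822), Lamp2 (chrX:38401357-38456454), Scarb2 (chr5:92441314-92506833), Lipa (chr19:34492318-34527474) and Galns (chr8:122578242-122611463) share no exon with another gene. Lamp1, Npc2, Aga, the aspartylglucosaminidase, and Gaa, the acid alpha-glucosidase of glycogen, were called in none of the 17 comparisons.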

How the data were processed

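PolyA RNA of 24 inguinal mammary glands was sequenced, per the labels. The deposited table holds log10 values of CPM + 1 in 48 columns, 2 for each mouse. The scale was inferred, as undoing the log10 gives every column the same CPM total. The submitters' processing notes name the builds GRCm38 and mm10. Which aligner, counting tool and strand setting were used is not given in the sources read. No column lacked a sample. The 2 columns of a mouse agreed within counting noise for 22 of 24 mice (chi-square per gene at or below 1, at most 1.63 in the others, against 12.13 to 211.34 between mice of a group), so they were averaged in CPM and counted once. The 2 columns of C57 non-lactating mouse 2 held about 2170000 and 11890000 reads, while those of any other mouse differed by at most 0.45%. In 100% of the low values, zeros included, whole reads were recovered within 0.05. Higher values, such as those of abundant milk genes, were rounded to reads on the same step without this check. Together they gave the read totals. Symbols turned into dates, 27 in all, stayed in the totals.

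The 19 milk protein genes were then removed and the rest rescaled to the total of a CPM. Genes above 1 CPM in at least 3 samples (16906) were tested with limma 3.58.1 (lmFit, contrasts.fit, eBayes with trend; R 4.3.3) on log2(non-milk CPM + 1), which understates changes of low genes, with 8 group means, 24 samples and 16 residual degrees of freedom. Tests were 2-sided, and p-values were adjusted by Benjamini-Hochberg over all tested genes, separately for the 17 comparisons. The design text gives 3 mice per group, and a mouse is the replicate. Steps were checked on simulated data. F numbers in the titles were not used as pairs, since in no comparison did every pair of same-numbered mice correlate above 0.1 in their deviations. In C57 day 21 against C57 day 14, 2 pairs did, the highest at 0.47. In NZB day 21 against C57 day 21, 2 pairs did as well, the highest at 0.122. In NZB against C57 non-lactating glands 1 pair did, at 0.109. All 41 genes could be named. In each role those with the smallest adjusted p in the 3 comparisons of NZB day 21 are given by mouse, and the other pathway lists by their smallest adjusted p. The members and lists were chosen with earlier results of these data known. Promoter sequences are RefSeq's, and gene positions GENCODE's on GRCm38. Alternatives were TMM scaling, the deposited scale, 8 core milk genes removed in place of 19, pseudocounts of 0.5 and 5, no filter, no variance trend, single columns, a replicate block, fits of the compared groups only, leaving out mice, and limma voom on recovered reads, which was added after seeing the data.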

Additional observations from a re-analysis of the deposited data

Results flagged for a closer look

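The change between stages differed between NZB and C57 glands, by an interaction term in limma at an adjusted p under 0.05, for 13 genes from non-lactating to day 21 and for 8 from day 14 to day 21. The shares of all genes were 12.7% higher and 4.1% lower from non-lactating to day 21, and 3.71% and 2.28% from day 14 to day 21. Under TMM 8 were higher and 2 lower from non-lactating to day 21. From day 14 to day 21 TMM kept only Cd63 and Galns. Values are the log2 change in NZB minus that in C57 glands. From non-lactating to day 21 the differences were, from the highest, Cd63 2.98, Lamp2 1.98, Hexa 1.75, Ctns 1.71, Scarb2 1.67, Grn 1.67, Manba 1.29, Atp6v1a 1.13, Atp6v1b2 1.03, Npc1 1.02, Tpp1 0.76, and on the lower side Galns -1.46, Tfeb -1.28. From day 14 to day 21 they were Cd63 2.19, Hexa 1.47, Lamp2 1.24, Idua 1.23, Atp6v1b2 1.06, Grn 1.01, Scarb2 1.005, and on the lower side Galns -1.34. The 2 sets of values share the day 21 mice. Tfeb averaged 33.1 non-milk CPM in NZB and 13.4 in C57 non-lactating glands, and 13.5 and 14.4 on day 21. Its genotypes were thus apart without lactation and near each other on day 21. For Cd63, Lamp2 and Scarb2, NZB day 21 glands were called higher than NZB day 14 glands, and C57 day 21 against C57 day 14 gave 0 calls. The milk protein share of reads was 24.4% in NZB and 70.6% in C57 glands on day 21, and the part of this difference, and of other cell types, was not tested.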

How the results depend on the processing

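The counts of called genes among the 41 moved by over 1.5 times under these settings. On the deposited scale, with milk genes in the totals, they were 38, 37 and 37 on C57 days 8, 14 and 21 and 37 and 35 on NZB days 8 and 14 against non-lactating glands, 39 in NZB day 21 against NZB day 14 and against C57 day 21, 1 in NZB against C57 non-lactating glands, and 36 and 37 in the interactions from non-lactating and from day 14 to day 21. For the interaction from day 14 to day 21, main count 8, TMM gave 2, and no filter, no variance trend, only the compared groups and limma voom gave 5 each. For NZB against C57 non-lactating glands, main count 2, no filter and no trend gave 1, and only the compared groups, or leaving out NZB mice 2 and 3, gave 0. Fits of only the compared groups gave 3 in C57 day 14 against day 8 and 8 in the interaction from non-lactating to day 21. The causes were not tested.

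On the deposited scale these log2 fold changes changed sign: NZB day 21 against NZB day 14, Tfe3 0.93, Smpd1 0.16, Gusb 0.77 and Galns 0.028; NZB day 21 against C57 day 21, Tfe3 0.86, Smpd1 0.30, Galns 0.13 and Fuca1 0.79; NZB day 8 against non-lactating, Galns -0.026, Cln3 -0.43, Neu1 -0.45, Igf2r -0.43, Asah1 -0.69, Glb1 -0.88, Tfe3 -1.09 and Atp6ap1 -0.80; C57 day 8 against non-lactating, Neu1 -0.22, Igf2r -0.57, Asah1 -1.21, Glb1 -0.80, Tfe3 -1.43 and Atp6ap1 -1.22.

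Leaving out 1 mouse at a time gave 1 to 9 calls in the interaction from day 14 to day 21, falling below 6 without NZB day 14 mouse 1 or 2, NZB day 21 mouse 2 or 3, C57 day 14 mouse 1 or 3, or C57 day 21 mouse 2 or 3. It gave 10 to 17 in NZB day 21 against day 14 (10 without NZB day 14 mouse 2), 0 to 2 in NZB against C57 non-lactating glands, 0 to 1 in NZB day 14 against day 8 and 0 to 1 in the interaction from non-lactating to day 8. With the F number as a replicate block the counts were 16 and 16 for NZB day 21 against NZB day 14 and C57 day 21, and 13 and 9 for the interactions, and no count moved by over 1.5 times. Of the other results, 294 counts stayed within 1.5 times, and of the single-gene values 1212 kept direction and call while 90 kept direction and lost the call. The planned count test with edgeR was not run. The fit with limma voom on the recovered reads was run in its place. Depth limits Gla, Hexa, Manba and Aga, whose lowest counts in any mouse were 14, 17, 24 and 27 reads.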
